A study of Mus musculus with 8 samples.

Results

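The genes described here are Ccnd1, Vma21, Pak1, Timp2, Wdr5 and Cxxc5, which other work, in other cells, has described as genes whose RNA changes its polyadenylation (poly(A)) site when Nudt21 is lost. They were taken by symbol, not by their values, and are 6 of the 21080 genes in the expression tables. All 6 were present in both tables and all 6 passed the filter on low values in every comparison. RNA was sequenced from macrophages grown from bone marrow (BMDMs), WT or Nudt21-cKO, either without stimulation (0 h) or 4 h into IFNγ/LPS, with 2 samples in each of the 4 groups.

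WT mice were sex-matched littermates carrying LysM-Cre, and Nudt21-cKO mice were Nudt21 fl/fl with the same Cre, so that Cre was present in both genotypes. Both were on the C57BL/6 background, and the ages of the mice are not given in the sources used here. LysM-Cre is active in myeloid cells in general and not only in macrophages, and removes the floxed exons of Nudt21 from those cells alone. The 0 h cells were taken as untreated from the sample titles and the study's methods, although the treatment label reads IFNγ/LPS stimulation for every sample. The 4 h cells received IFNγ at 50 ng/ml overnight and LPS at 50 ng/ml for the 4 h, so the comparison of times is one of both agents together. Each sample pooled cells of 2 mice, and the p-values below measure only the spread between 2 such pools per group.

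Nudt21 encodes the small subunit of cleavage factor Im, which sits on UGUA motifs upstream of a poly(A) site and recruits the machinery that cuts the pre-mRNA and adds the poly(A) tail. Many genes carry more than one poly(A) site in the 3' UTR, and Nudt21 is known for favouring the distal one, so that its loss in other cells shortens many 3' UTRs. A shorter 3' UTR can leave out sites for microRNAs and RNA-binding proteins, and the amount of mRNA or protein may or may not change with it. The tables used here hold 1 value per gene and sample, the mean number of reads over each base of the gene's annotated transcripts, called coverage below. Coverage was read as a level of RNA, and where the RNA ends was not measured by it. A change of the 3' end can itself move a mean over annotated bases, and its part in the values below was not tested.

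The 3' UTRs of the 6 genes differed widely in length and in the number of core motifs, written TGTA in DNA letters. For each gene, the longest 3' UTR among coding transcripts with a RefSeq match in GENCODE M21 on GRCm38 was taken. It was searched on the transcribed strand, with overlapping matches allowed. Vma21 had the longest 3' UTR, of 3759 bases with 32 TGTA motifs, and 96.8% of 19256 genes had fewer. Ccnd1 followed with 2676 bases and 16 motifs, and Timp2 with 2630 bases and 10 motifs. Wdr5 had 1678 bases and 11 motifs, Pak1 1199 bases and 2 motifs, and Cxxc5 994 bases and 7 motifs.

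The median gene had a 3' UTR of 854 bases with 4 TGTA motifs, so Pak1 alone of the 6 lay below the median gene in motif number. Per kilobase, Vma21 held 8.51 motifs, Cxxc5 7.04, Wdr5 6.56 and Ccnd1 5.98, against a median of 5.05 among genes with a 3' UTR of at least 100 bases, while Timp2 held 3.8 and Pak1 1.67. Pak1 had 2 annotated coding ends, at 701 and 1199 bases after the stop codon, and both Pak1 motifs lay before the first. Wdr5 also had 2 annotated ends, at 186 and 1678 bases, and all 11 of its motifs lay between them. The other 4 genes had a single annotated coding end. These counts describe letters in annotated transcripts and are not binding sites.

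**Figure D1:**
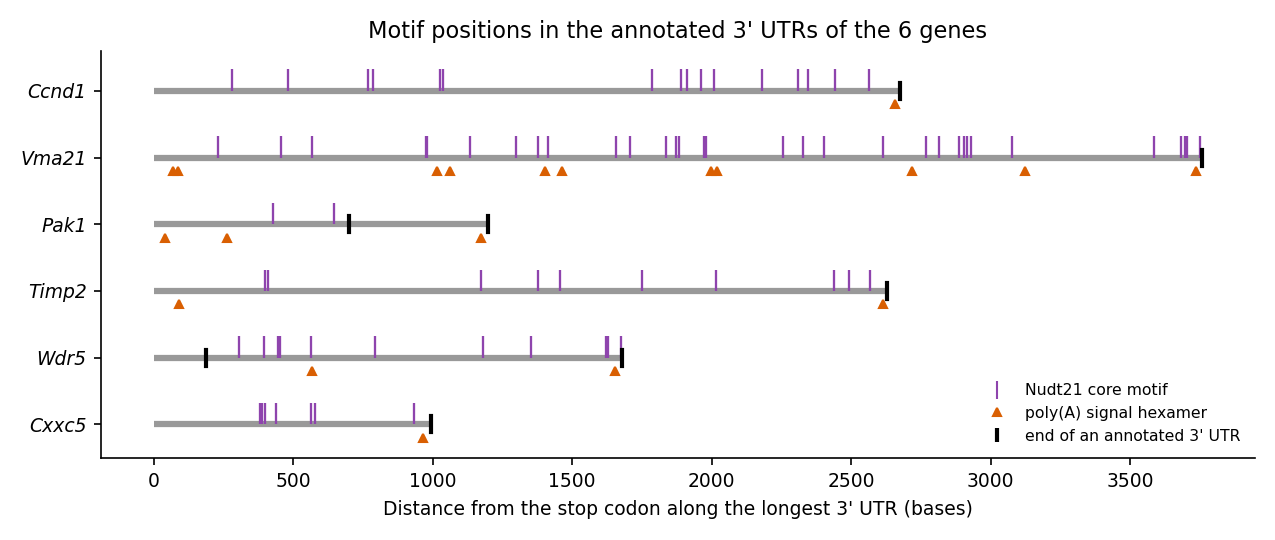
Positions of the Nudt21 core motif (purple ticks) and of a poly(A) signal hexamer (AATAAA or ATTAAA, orange triangles) along the longest 3' UTR of each of the 6 genes, as the distance in bases from the stop codon. Black bars mark annotated ends of coding transcripts. Vma21 carries the most motifs, with 32, and Pak1 the fewest, with 2.

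The TGTA nearest to the end of the longest 3' UTR and over 20 bases from it is shown for 5 of the genes. It is the last motif that lies clearly before that annotated end. Each is given in 30 bases of the GRCm38 transcribed strand, 5′ to 3′. Vma21 and Wdr5 each had a further TGTA, 10 and 5 bases from the end. Each stretch lies in the single exon that holds the 3' UTR. Capitals mark that motif, and further copies stay in lower case.
Ccnd1, chr7:144930025-144930054, minus strand: caggttggcttttTGTAtttctggttgaca
Vma21, chrX:71824638-71824667, plus strand: gtatattgtagccTGTAatttatattaatt
Pak1, chr7:97911816-97911845, plus strand: atggtcttagctaTGTAgcagcttttgatt
Timp2, chr11:118301116-118301145, minus strand: gcgcctgatgctcTGTAtcagtctctactt
Wdr5, chr2:27536474-27536503, plus strand: tgttgtagatttaTGTAaaaatacattctc

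The motif began 49 bases before the annotated end in Wdr5, 56 in Vma21, 64 in Timp2, 111 in Ccnd1 and 553 in Pak1. In Pak1 it also lay before the nearer annotated end, at 701 bases after the stop codon. Over genes with a 3' UTR of at least 100 bases, 48.9% held a TGTA between 20 and 100 bases before the end, and Vma21, Timp2, Wdr5 and Cxxc5 did among the 6.

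The poly(A) signal at the same annotated end is shown for the same 5 genes. That end is the more distal of 2 in Pak1 and Wdr5 and the only annotated coding end in the others. Capitals mark AATAAA or ATTAAA.
Ccnd1, chr7:144929935-144929964, minus strand: aaaaaatctagaaAATAAAattggtaaaat
Vma21, chrX:71824669-71824698, plus strand: accatttgttgtcATTAAAaaaagtgtctg
Pak1, chr7:97912344-97912373, plus strand: ttctatttccttcAATAAAaggagatgaaa
Timp2, chr11:118301069-118301098, minus strand: ctctgtcaatggacAATAAAccatattatc
Wdr5, chr2:27536499-27536528, plus strand: ttctctttttaaaAATAAAgattttcatgc

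All 6 genes held one of these hexamers in their last 40 bases, as did 77% of genes with a 3' UTR of at least 100 bases. Vma21 had the variant ATTAAA at its end and 11 hexamers along its 3' UTR. Pak1 had 3 hexamers, Timp2 and Wdr5 2 each, and Ccnd1 and Cxxc5 1 each.

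Nudt21 was checked first. At 0 h the WT samples were at 718 and 641 and the Nudt21-cKO samples at 158 and 172. At 4 h the values were 547 and 575 against 142 and 115. The genotypes did not overlap at either time, and Nudt21 was 4.38-fold lower in Nudt21-cKO at 0 h and 5.53-fold lower at 4 h (limma adjusted p = 0.0355 and 0.0441). The sum of coverage over all genes ran from 14950347 to 17954882 per sample and no WT sample reached the sum of a Nudt21-cKO sample from its own time. Each sample was therefore centred on its median gene before testing, and values on the deposited scale are given where they change a call or direction of the 6 genes or the count of a pathway list. Macrophage markers were high in all samples, with summed centred coverage of 80022 to 127678, although Adgre1 and Fcgr1, and after centring alone Csf1r, were called lower in Nudt21-cKO at 0 h. Cd68 was called higher at both times, and the 4 h calls of Adgre1 (-0.80) and Fcgr1 (-0.63) as lower were lost on the deposited scale. Markers of neutrophils and granulocyte precursors summed to 13351 to 14624 in WT and 14982 to 18399 in Nudt21-cKO at 0 h. At 4 h the sums were 31086 to 31740 in WT and 25863 to 30714 in Nudt21-cKO. Mpo was called lower at 4 h after centring alone. On the deposited scale 1 of these 8 markers was called higher at 4 h and none lower. The dendritic cell marker Xcr1 was called lower in Nudt21-cKO at 4 h (-3.50), as was Clec9a after centring (-0.89) but not on the deposited scale, whereas Zbtb46 was called higher (1.19). Among T cell markers, Cd3e was at 0 in both genotypes at 0 h, whereas Cd4 was at 173 and 197 in WT and 140 and 146 in Nudt21-cKO. The B cell marker Cd79b (-1.05) and the erythroid marker Epor were called lower in Nudt21-cKO at 0 h on both scales. The part of such cells in the values below was not tested.

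At 0 h, Wdr5 was called higher and Ccnd1 lower in Nudt21-cKO, and at 4 h Timp2 and Wdr5 were called higher. Here called means a fold change above 1.5 with an unadjusted p under 0.05 in limma, the rule of the study's methods. At 0 h, 1 of the 6 genes was called higher against 7.25% of the 16251 genes tested, and 1 was called lower against 6.98%. At 4 h, 2 were called higher against 10.4% of 14950 genes, and none was called lower against 9.9%. Over all genes, the 1552 higher and 1480 lower calls at 4 h fell to 893 and 884 without Nudt21-cKO replicate 4, and to 1026 and 1082 without replicate 3. With Benjamini-Hochberg adjustment over all genes, Timp2 at 4 h was the single call among the 6, where 1.08% of genes were higher and 0.495% lower at that threshold. At 0 h, where 0.738% were higher and 0.345% lower, none of the 6 passed in limma. Ccnd1, Timp2 and Wdr5 had an unadjusted limma p under 0.05 there, a level whose share over all genes is not given here. In a limma fit that took the spread from all 8 samples, Ccnd1 at 0 h (adjusted p = 0.0395) and Wdr5 at 4 h (0.0174) also passed. The shares above do not belong to that fit, and the share of all genes passing in it is not given here. In bulk RNA, a change in the number of cells that make a transcript and a change in the amount per cell cannot be told apart.

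The median log2 fold change over the 6 genes was -0.06 at 0 h and 0.31 at 4 h, beside 0.01 and -0.03 over all genes tested. Of the 6, 3 had a positive value at 0 h and 5 at 4 h. The single negative value at 4 h, that of Pak1, was -0.10 and was positive on the deposited scale (0.23) and under equal total coverage.

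**Figure D2:**
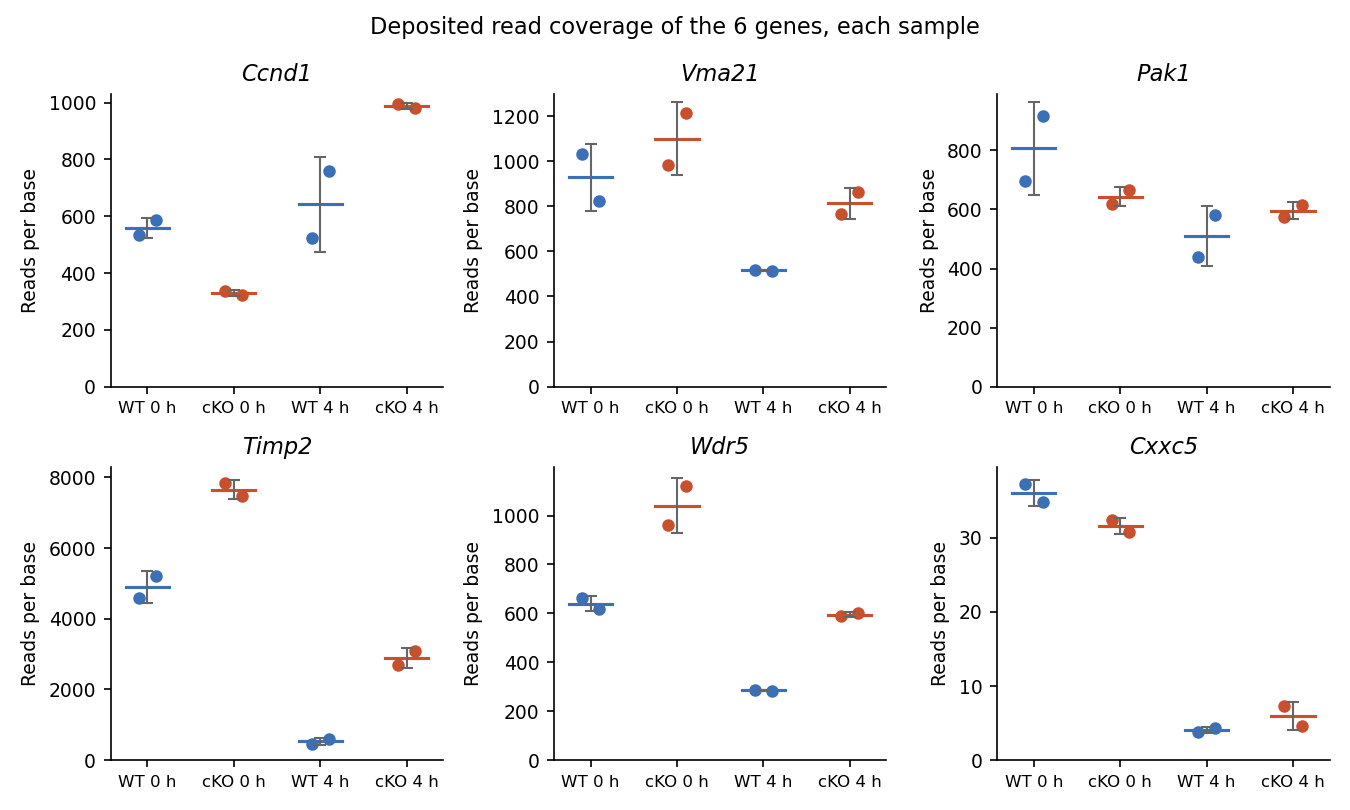
Deposited coverage (mean reads per base) of the 6 genes in each sample (points), with the group mean (line) and SD (grey bar, n = 2), for WT (blue) and Nudt21-cKO (red) at 0 h and 4 h. Timp2 in Nudt21-cKO at 4 h lies at 2697 and 3096, against 462 and 608 in WT.

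Timp2 encodes a secreted inhibitor of matrix metalloproteinases that also takes part in activating pro-MMP2 at the cell surface. It had the highest coverage of the 6 genes in the untreated cells, 4586 and 5210 in WT and 7839 and 7466 in Nudt21-cKO. At 4 h it was 462 and 608 in WT and 2697 and 3096 in Nudt21-cKO. The genotypes did not overlap before or after stimulation, Nudt21-cKO being the higher, and the ratio of the genotypes was larger after it.

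At 0 h the log2 fold change of Timp2 was 0.55 (95% confidence interval 0.12 to 0.99, limma adjusted p = 0.173), a fold of 1.47 and so just short of the fold required. On the deposited scale it was 0.65 and was called. At 4 h it was 2.11 (1.66 to 2.56), 4.31-fold higher in Nudt21-cKO with a limma adjusted p of 0.0449, above 94.9% of all genes tested. Its 4 h call by fold and unadjusted p was kept in all alternatives run, while its adjusted p was 0.0688 under equal total coverage, 0.0755 without a filter and 0.129 to 0.252 when 1 sample was left out.

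The genotype effect on Timp2 was larger at 4 h than at 0 h by 1.53 on the log2 scale (1.01 to 2.06, limma interaction, adjusted p = 0.0396). Timp2 was the only one of the 6 with an adjusted p under 0.05 for this difference. That level was reached by 1.07% of 16284 genes in the positive and 1.06% in the negative direction. The Timp2 call was lost when the replicate number was added to the fit as a block. Leaving out any 1 of the 8 samples gave 1.42 to 1.65 with adjusted p between 0.0577 and 0.132. In WT, Timp2 was called lower after stimulation, with a log2 fold change of -1.75 (-2.26 to -1.25). In Nudt21-cKO it was -0.20 (-0.65 to 0.25) after centring, and the 4 samples overlapped between the times. On the deposited scale the falls were of -3.2 in WT and -1.40 in Nudt21-cKO, and both were called. Timp2 in Nudt21-cKO was also called lower under quantile normalization (-1.65) and equal total coverage (-1.44).

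Stromal cells can also express Timp2. Summed centred coverage of 6 stromal markers was 56.7 to 126 in WT and 98 to 130 in Nudt21-cKO at 0 h, and 32.9 to 154 and 112 to 165 at 4 h. The summed values overlapped between genotypes at both times. Of the 5 stromal markers tested, Col1a1, Col1a2, Col3a1 and Pdgfra had higher mean coverage in Nudt21-cKO at both times, and Dcn, at 0 in WT replicate 1, had lower mean coverage. The fitted log2 fold changes of all 5 were positive, with medians of 0.93 at 0 h and 0.99 at 4 h, that of Dcn resting on this 0. Col3a1 and Pdgfra were called higher in Nudt21-cKO at 0 h, and at 4 h none was called by limma after centring and 1 on the deposited scale. The part of these markers in the Timp2 values was not tested.

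Of 10 other TIMP and metalloproteinase genes tested, 2 were called higher and 3 lower in Nudt21-cKO at 0 h, and 2 higher and 2 lower at 4 h (3 higher and 1 lower on the deposited scale). Mmp2, the gelatinase that Timp2 both inhibits and helps to activate, was called higher at 4 h, where its coverage was 12.2 and 18.2 in WT and 47.3 and 55.6 in Nudt21-cKO (log2 fold change 1.44). Mmp14, the membrane-bound activator of pro-MMP2, was called lower at 0 h (-1.25) and not at 4 h (-0.44). Mmp13, a collagenase, was called lower at both times, by -0.94 and -2.11, as was Mmp12, the macrophage elastase, by -0.82 and -0.91. Mmp9, another gelatinase, was called higher at both times, by 1.38 and 2.31, and Reck, a membrane-anchored metalloproteinase inhibitor, at 0 h (0.91); these were named after their values were seen. The paralogs Timp1 (0.38 and -0.59) and Timp3 (0.41 and 0.59) were called at neither time. The adjusted p of each of these genes was above 0.05 in limma, and Mmp12 at 4 h was not called on the deposited scale.

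Wdr5 encodes a WD-repeat protein that holds together the complexes that methylate lysine 4 of histone H3. At 0 h its coverage was 662 and 618 in WT and 961 and 1122 in Nudt21-cKO. At 4 h WT was at 288 and 284 and Nudt21-cKO at 588 and 603. The Nudt21-cKO values were the higher ones at 0 h and at 4 h, without overlap. The log2 fold change was 0.61 (0.29 to 0.93) at 0 h and 0.72 (0.28 to 1.17) at 4 h, with limma adjusted p of 0.119 and 0.107. The difference between these effects was 0.09 (-0.35 to 0.54), and its sign turned under quantile normalization (-0.066) and in 1 leave-out fit (-0.04).

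The 0 h fold of Wdr5 was 1.52, next to the threshold, and the call was lost under quantile normalization and equal total coverage (log2 fold changes of 0.57 and 0.58) and without WT replicate 2 (0.57) or Nudt21-cKO replicate 4 (0.55). The 4 h call was lost without Nudt21-cKO replicate 3 or 4, at values of 0.74 and 0.70. On the deposited scale, Wdr5 at 4 h was at 1.06 with an adjusted p of 0.0482. Among 12 genes for WDR5 partner subunits and methyltransferases, none was called by limma at either time, and 1 at 0 h and 3 at 4 h had an unadjusted p under 0.05 without the fold. At 4 h, 3 of the 12 were called higher on the deposited scale. The core partners Ash2l (0.01 and -0.14), Rbbp5 (0.25 and -0.34) and Dpy30 (0.11 and -0.33) had values on either side of 0.

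Ccnd1 encodes cyclin D1, which activates CDK4 and CDK6 in the G1 phase of the cell cycle. In the untreated cells its coverage was 534 and 585 in WT and 338 and 322 in Nudt21-cKO. At 4 h it was 523 and 760 in WT and 995 and 981 in Nudt21-cKO. The Nudt21-cKO samples were thus both below WT at 0 h and both above WT at 4 h.

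At 0 h Ccnd1 was 1.80-fold lower in Nudt21-cKO (log2 fold change -0.85, interval -1.24 to -0.46, limma adjusted p = 0.106), and the call was kept in all alternatives run. At 4 h the log2 fold change was 0.31 (-0.18 to 0.80, limma adjusted p = 0.304) and was not called, nor was it on the deposited scale (0.65). The difference between the times was 1.14 (0.63 to 1.66), with a limma adjusted p of 0.0669 that missed the threshold. Stimulation raised Ccnd1 in Nudt21-cKO under each of the 4 scalings, by 2.79 after centring and 1.58 on the deposited scale. In WT it was called higher after centring (1.63) and not on the deposited scale (0.17).

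The annotated exons of Ccnd1 share 1100 bases with those of LTO1, a gene on the opposite strand, and the library kit was the version of NEBNext Ultra that does not mark strand. Reads over those bases therefore cannot be assigned to either gene with certainty. LTO1 had coverage of 240 and 258 in WT and 502 and 579 in Nudt21-cKO at 0 h, and of 110 and 116 and 343 and 404 at 4 h. It was called higher in Nudt21-cKO at both times, by 1.02 and 1.38, whereas Ccnd1 was lower at 0 h. LTO1 was looked up for the overlap and is not one of the genes chosen here.

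Of 18 other D-type cyclin and G1 genes, 1 was called higher at 0 h, and 1 higher and 1 lower at 4 h. On the deposited scale 2 were called higher at 0 h and 5 higher and none lower at 4 h. Cdkn1c, an inhibitor of cyclin-dependent kinases, had coverage of 498 and 412 in WT and 2115 and 1503 in Nudt21-cKO at 0 h, and of 27.6 and 27.1 and 266 and 261 at 4 h. It was higher in Nudt21-cKO by 1.89 and 2.93 (limma adjusted p = 0.108 and 0.0308). Rb1, the retinoblastoma protein that cyclin D kinases phosphorylate, was called lower at 4 h (-0.82) but not on the deposited scale (-0.48). The other D-type cyclins, Ccnd2 (-0.81 and 0.11) and Ccnd3 (-0.39 and 0.29), were called at neither time, although each had a negative value at 0 h and a positive one at 4 h, as Ccnd1 had.

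Pak1 encodes a p21-activated kinase that acts downstream of Rac and Cdc42 on the actin cytoskeleton. At 0 h its coverage was 695 and 918 in WT and 620 and 666 in Nudt21-cKO. At 4 h WT was at 439 and 582 and Nudt21-cKO at 576 and 615. The genotypes did not overlap at 0 h, where the log2 fold change was -0.41 (-1.01 to 0.20, limma adjusted p = 0.336). It was called there only when WT replicate 1 was left out (-0.62). At 4 h the centred values overlapped, at -0.10 (-0.50 to 0.30).

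Among 11 other genes of the Pak family and its partners that were tested, none was called by limma at 0 h, where 3 had an unadjusted p under 0.05, and 2 were called lower at 4 h. These were Arhgef6, an exchange factor that binds Pak proteins (-0.90), and Rac2, the Rac GTPase of blood cells (-0.60), and neither was called on the deposited scale. Pak2, the paralog, was at 0.21 and -0.22 and was not called. Pak2 coverage ranged from 1453 to 2427 over the 8 samples, above that of Pak1 in each of them.

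Vma21 encodes an assembly factor of the vacuolar ATPase, the proton pump that acidifies lysosomes and phagosomes. Its coverage was 1033 and 823 in WT and 985 and 1215 in Nudt21-cKO at 0 h, and the genotypes overlapped. At 4 h it was 518 and 514 in WT and 765 and 863 in Nudt21-cKO, without overlap. The log2 fold change was 0.15 (-0.39 to 0.70) at 0 h and 0.32 (-0.17 to 0.81, limma adjusted p = 0.295) at 4 h. At 4 h it was called on the deposited scale alone, at 0.65. A copy of the gene, Vma21-ps, is annotated elsewhere in the genome, and how reads that fit both were counted is not given in the sources used here.

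Of 9 other genes of the vacuolar ATPase and its assembly, 1 was called higher at 0 h, and at 4 h none was called by limma or had an unadjusted p under 0.05 after centring, while 4 were called higher on the deposited scale. The gene called at 0 h was Atp6v0b, a subunit of the membrane sector, at 0.65 and 0.39. Atp6ap1, an accessory subunit that takes part in assembly, was at 0.32 and 0.33, and the assembly factor Tmem199 at -0.11 and -0.37, neither called.

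Cxxc5 encodes a CXXC zinc finger protein that binds Dishevelled in the Wnt pathway and is the gene of the 6 with the lowest coverage. It lies on GRCm38 chromosome 18, from 35829397 to 35861688 on the plus strand. Its coverage was 37.3 and 34.8 in WT and 32.4 and 30.8 in Nudt21-cKO at 0 h. At 4 h it was 3.77 and 4.30 in WT and 7.26 and 4.65 in Nudt21-cKO. The log2 fold change between genotypes was -0.28 (-0.64 to 0.08) at 0 h and 0.18 (-0.66 to 1.02) at 4 h, neither called, and the sign at 4 h turned without Nudt21-cKO replicate 3 (-0.13).

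Stimulation lowered Cxxc5 in both genotypes, by -1.68 (-2.09 to -1.27) in WT and -1.22 (-2.07 to -0.37) in Nudt21-cKO. It was called lower in both genotypes on each of the 4 scalings, and the call in Nudt21-cKO was lost without replicate 3 or replicate 4 of that genotype at 0 h. Of 11 other CXXC and Dishevelled genes tested, 1 was called higher at 4 h, Dvl2, one of the Dishevelled genes (0.75). The deposited scale gave 5 called higher at 4 h. At 0 h, 2 were called lower after centring, Fbxl19, a CXXC-domain F-box gene (-0.66, not called on the deposited scale), and Tet1, a 5-methylcytosine oxidase whose coverage was at most 3.02 in any sample. Cxxc1, a subunit of histone methyltransferase complexes, was at 0.19 and 0.40 and was not called.

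**Figure D3:**
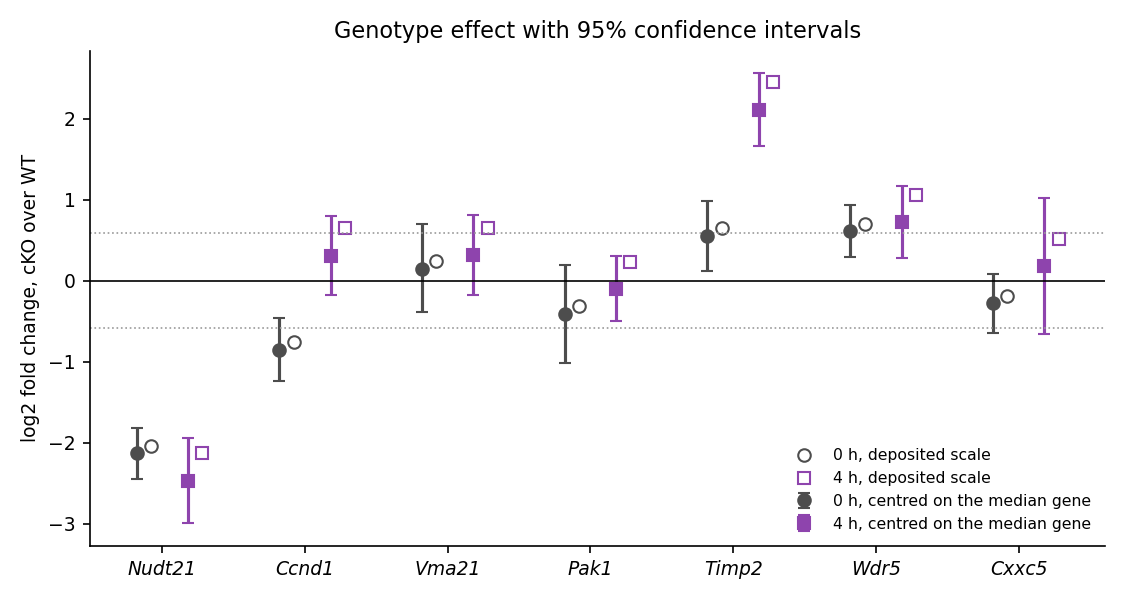
Log2 fold change of Nudt21-cKO over WT for Nudt21 and the 6 genes at 0 h (grey circles) and 4 h (purple squares), with 95% confidence intervals from limma after centring on the median gene. Open symbols give the deposited scale and dotted lines the 1.5-fold threshold. Timp2 at 4 h is at 2.11 and Ccnd1 changes side between 0 h (-0.85) and 4 h (0.31).

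**Figure D4:**
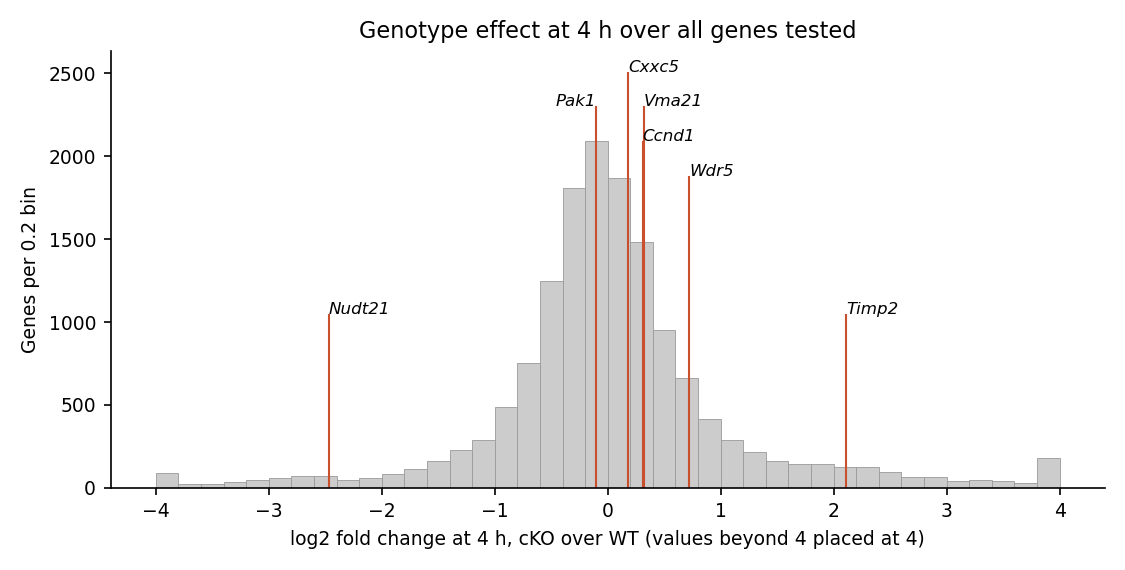
Number of genes per bin of log2 fold change at 4 h, Nudt21-cKO over WT, over the 14950 genes tested (grey bars, values beyond 4 placed at 4). Red lines mark Nudt21 and the 6 genes. Timp2 lies above 94.9% of all genes, and Pak1, Cxxc5, Ccnd1, Vma21 and Wdr5 lie between -0.10 and 0.72.

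The time comparison asked how the same genes differed between untreated and stimulated macrophages of one genotype. Its direction depended on the scaling, because the median gene on the deposited scale was lower at 4 h by -1.27 in WT and -1.05 in Nudt21-cKO. After centring, 2 of the 6 genes were called higher in WT, Ccnd1 and Pak1, against 33.5% of 16002 genes, and 2 lower, Timp2 and Cxxc5, against 22.4%. In Nudt21-cKO, 3 were called higher, Ccnd1, Pak1 and Vma21, against 32.7% of 16223 genes, and Cxxc5 was called lower, against 23.2%. The median over the 6 was 0.45 in WT and 0.59 in Nudt21-cKO, beside 0.18 and 0.15 over all genes.

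For Vma21, the log2 fold change with stimulation was 0.62 in WT and 0.78 in Nudt21-cKO after centring, but -0.84 and -0.43 on the deposited scale. For Pak1 the centred values were 0.79 and 1.09 and the deposited ones -0.66 and -0.11. For Wdr5 the centred values were 0.29 and 0.40 and the deposited ones -1.16 and -0.80. No direction with stimulation is therefore given for these 3 genes. Timp2 and Cxxc5 in WT kept a called negative value, and Ccnd1 in Nudt21-cKO a called positive one, under all 4 scalings. In Nudt21-cKO, Timp2 was called lower under each scaling except centring.

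**Figure D5:**
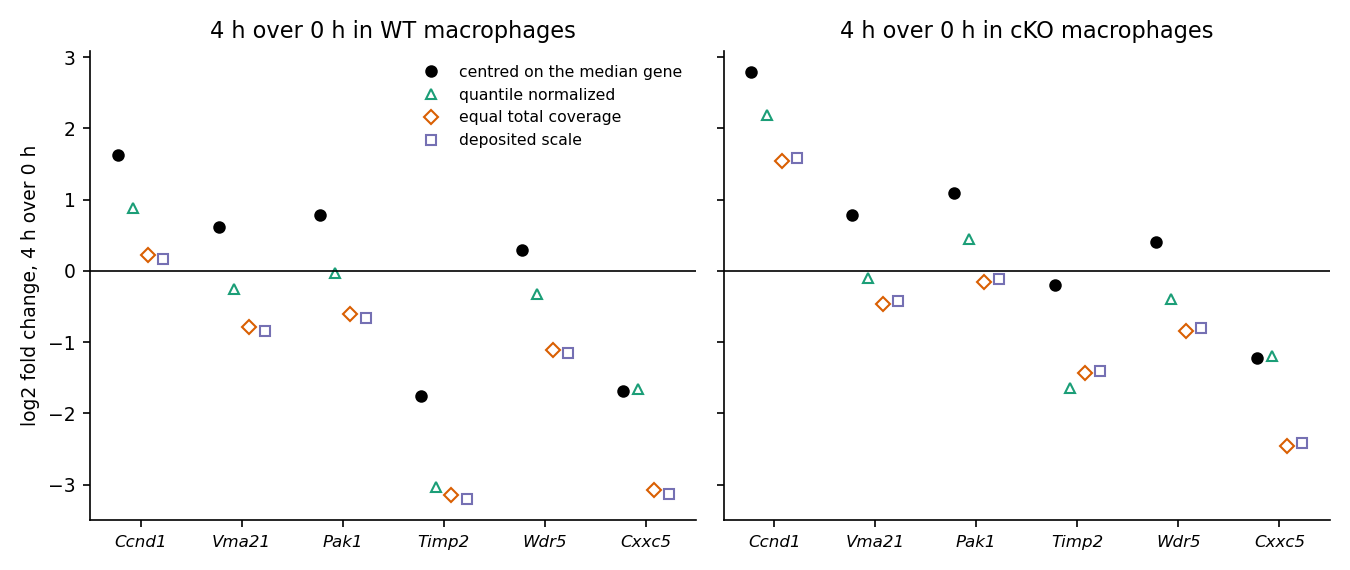
Log2 fold change of 4 h over 0 h for the 6 genes in WT and Nudt21-cKO under 4 scalings (filled circles for centring on the median gene, open symbols for the others). In WT, Vma21, Pak1 and Wdr5 lie above 0 after centring and below 0 under the other 3 scalings, and Timp2 and Cxxc5 lie below 0 under each.

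Dicer1, which processes microRNAs, and Psmb2, a proteasome subunit gene, have also been reported as Nudt21 targets. Dicer1 had coverage of 511 and 599 in WT and 570 and 577 in Nudt21-cKO at 0 h, and Psmb2 of 2911 and 2199 against 2485 and 2729. The genotypes overlapped for both genes. Their log2 fold changes were -0.04 and -0.05 at 0 h and -0.24 and -0.35 at 4 h, and limma called neither at either time.

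The other parts of the cleavage and polyadenylation machinery were measured in the same cells. Of 19 genes, 3 were called higher and none lower at 0 h, and 1 higher and none lower at 4 h, where 5 were called higher on the deposited scale. Cpsf6, the large subunit that pairs with Nudt21 in cleavage factor Im, had coverage of 804 and 798 in WT and 2406 and 2477 in Nudt21-cKO at 0 h. At 4 h its coverage was 457 and 433 in WT and 1676 and 1753 in Nudt21-cKO. Cpsf6 was higher in Nudt21-cKO by 1.52 at 0 h and 1.61 at 4 h (limma adjusted p = 0.0442 and 0.068). The poly(A) polymerase Papolg (0.85) and the nuclear poly(A)-binding protein gene Pabpn1 (0.74) were called higher at 0 h and were at -0.23 and 0.42 at 4 h, not called.

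Each gene's profile over the 8 samples was also set against those of 16283 other genes, by Pearson correlation of centred log2 coverage. The 2 nearest profiles to Timp2 were those of Nudt13 (r = 0.9919) and Creg2 (0.99), and to Wdr5 those of Lgals8 (0.996) and Cpsf6 (0.9852). Nearest to Ccnd1 were Pgap2 (0.9971) and Sdc3 (0.9951), and nearest to Pak1 were Pus10 (0.9963) and Tbc1d2b (0.9924). Nearest to Vma21 were Srcin1 (0.9952) and Pdcd5 (0.9909), and nearest to Cxxc5 were Mef2b (0.9952) and Shisa9 (0.9947). These values are the highest of many over 8 samples in 4 groups and are given as descriptions.

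Among the 6 genes themselves, Ccnd1 and Pak1 had the most similar profiles (r = 0.97), and Cxxc5 ran opposite to Vma21 (-0.89), Ccnd1 (-0.88) and Pak1 (-0.88). Timp2 had its highest correlation with Cxxc5 (0.53) and its lowest with Pak1 (-0.61), and Wdr5 had its highest with Vma21 (0.73). The 8 samples share their libraries and the large difference between 0 h and 4 h, and these correlations carry no test.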

How the data were processed

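RNA of 8 BMDM samples was sequenced from NEBNext Ultra libraries. Per the study's methods and the labels, the authors aligned paired-end reads to mm10 with HISAT2 2.2.1 and quantified RefSeq genes with StringTie 2.1.7. They deposited 1 table per time with a coverage signal per gene and sample. The unit is not named in the tables and was read from the values, since 34.3% of 720 low values were whole bases within 0.02 after multiplication by transcript length. These values hold no read counts per gene, so counting error could not be given. The authors' fold changes and p-values in these tables were not used, and 0 columns of sample values were left out.

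Groups came from the sample titles. Genotypes at each time, times within each genotype, and the interaction over all 8 samples were tested in R 4.3.3 with the limma package (version 3.58.1), on log2 of the coverage plus 0.1. Genes with a mean below 0.5 over the samples of a comparison were left out of it, and each sample was centred on its median gene. All fold changes are on this scale, which understates those of genes with low coverage. A call needed a fold change above 1.5 with an unadjusted p under 0.05, or, for the interaction, a Benjamini-Hochberg adjusted p under 0.05. An exact permutation of 2 against 2 samples cannot give a p below 0.333, so none was run for single genes. The procedure was tested on simulated coverage.

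Other scalings, pseudocounts, filters and sample sets were tried. The 6 genes and all gene lists were chosen with earlier results of these data known. Named genes were the 6, Nudt21, other reported targets, direct partners and paralogs, at most 4 called genes per list in order of p, and the 2 nearest profiles of each gene. Some genes of the lists are not reported here. LTO1 was added after the overlap was found. 3' UTR sequences came from GENCODE M21 on GRCm38, which is the build called mm10.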

Additional observations from a re-analysis of the deposited data

Results flagged for a closer look

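The genotype effect differed between the times for Timp2 and Papolg in limma's interaction over all 8 samples. Neither call was kept when the replicate number was added to the fit as a block. For Timp2 the effect at 4 h exceeded that at 0 h by 1.53 on the log2 scale (adjusted p = 0.0396), with no overlap between the genotypes at 0 h or at 4 h, and the adjusted p was 0.0577 to 0.132 with any 1 of the 8 samples left out. For Papolg, a poly(A) polymerase gene, the difference was -1.09 (adjusted p = 0.0413), from 0.85 to -0.23, and on the deposited scale it was -0.83 (adjusted p = 0.116).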

How the results depend on the processing

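With 2 pooled samples per group, Timp2 at 4 h and Ccnd1 at 0 h were called under all alternatives run. Members called at 0 h fell from 2 to 1 under quantile normalization and under equal total coverage, and ranged from 1 to 3 with 1 sample left out. With 1 sample left out, members called ranged from 1 to 2 at 4 h, and from 2 to 4 for stimulation in Nudt21-cKO. The single interaction call, of Timp2, was lost in each of the 8 leave-out fits, which called 0 members. The replicate numbers recur at both times within a genotype, but deviations of same-numbered samples correlated by only 0.02 in WT and 0.024 in Nudt21-cKO. A fit with the replicate block called 0 members and 0 genes for the interaction (Timp2 1.53, adjusted p = 0.203), with 2872 genes, Timp2 and Ccnd1 among them, at an unadjusted limma p under 0.05. No paired analysis of the genotypes was possible because they share no replicate number.

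Signs turned in these cases, and the cause was not tested. Pak1 at 4 h was at 0.23 on the deposited scale and 0.023 under equal total coverage. For stimulation, values under the deposited scale, quantile normalization and equal total coverage were -0.84, -0.26 and -0.79 for Vma21 in WT and -0.43, -0.10 and -0.47 in Nudt21-cKO. They were -0.66, -0.024 and -0.61 for Pak1 in WT, with -0.11 and -0.15 on the first and last in Nudt21-cKO. For Wdr5 they were -1.16, -0.32 and -1.11 in WT and -0.80, -0.39 and -0.84 in Nudt21-cKO. The Wdr5 interaction was -0.066 under quantile normalization. With 1 sample left out, Cxxc5 at 4 h ranged from -0.13 to 0.50, and the interaction from -0.005 to 0.30 for Vma21 and from -0.04 to 0.22 for Wdr5.

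On the deposited scale 3112 genes were called higher and 624 lower at 4 h, 83.3% of calls higher against 51.2% after centring, and 1461 and 912 at 0 h (61.6% against 50.9%). For stimulation 1907 were higher and 8815 lower in WT (17.8% against 60%), and 2223 and 8627 in Nudt21-cKO (20.5% against 58.5%). For the interaction 372 were higher and 124 lower. With a pseudocount of 1 the interaction called 112 genes higher.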
